A study of Mus musculus with 2 samples.

Results

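The transcription factors of the sclerotome were examined in RNA-Seq counts of primary chondrocytes and primary dermal fibroblasts of newborn mice. These factors were *Pax1*, *Pax9*, *Nkx3-2*, *Foxc1*, *Foxc2*, *Meox1* and *Meox2*, and each was taken as the row of the count table that carries its symbol. All 7 were found among the 24421 rows. The chondrocytes were released from rib cartilage with collagenase and used within a small number of passages, and the fibroblasts were released with collagenase from the skin of the back. No genotype, strain, sex or agent is given for the animals of either library, nor is the number of animals behind each. There was 1 library per cell type, so no difference reported here has a replicate check. The intervals given below cover counting error only.

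The sclerotome is the ventral part of the somite, the segmented mesoderm beside the neural tube, and it gives rise to vertebrae and ribs. Hedgehog signals from the notochord and floor plate induce the paired-box genes *Pax1* and *Pax9* there, and these act upstream of the homeobox gene *Nkx3-2* and of *Sox9*, the master regulator of cartilage. The forkhead genes *Foxc1* and *Foxc2* and the homeobox genes *Meox1* and *Meox2* are expressed earlier and more widely in the somite, and pairs of paralogues act together in patterning the axial skeleton. The dermis of the back also comes largely from the somite, from its dorsal compartment, the dermomyotome. The comparison therefore sets a sclerotome derivative beside cells of a neighbouring compartment.

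The libraries held 18788599 counts in chondrocytes and 17563724 counts in dermal fibroblasts. Library sizes were scaled with TMM factors, which correct the totals for a few very abundant genes, and scaled values are written as CPM, the count relative to the scaled library size. A fold is chondrocytes over dermal fibroblasts, with counts under 3 set to a floor of 3, and a gene was called where the fold passed 2. The labels were checked on a list of SOX factors and cartilage matrix genes, and all 14 passed 2-fold in favour of chondrocytes, with a median log2 fold of 11.00. *Col1a1* was higher in dermal fibroblasts, with 322379 counts against 39143.

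The sclerotome factors were for the most part more abundant in chondrocytes. The fold passed 2 toward chondrocytes for 6 of the 7 and toward dermal fibroblasts for 0. Among the 14291 genes with at least 10 counts in either library, 11.8% passed 2-fold toward chondrocytes and 16.2% toward dermal fibroblasts. The lower end of the interval was itself above 2 for 4 factors, *Foxc1*, *Nkx3-2*, *Meox1* and *Foxc2*, and for 7.21% of those genes. *Pax9* passed the 2-fold threshold on 6 reads against 1, with a ratio whose interval spans equality. *Pax9* and *Pax1* did not reach 10 counts in either library, so they are not among the 14291 genes. The other 5 factors are among them, and all 5 passed 2-fold toward chondrocytes. *Nkx3-2* (51 and 0 counts) and *Meox1* (72 and 7 counts) reached 10 counts in chondrocytes alone. For these genes the filter itself favours that direction. The median log2 fold over all 7 factors was 2.60, and that over the 14291 genes was -0.0035. Together the 7 factors took 1864 reads in chondrocytes and 162 in dermal fibroblasts, and *Foxc1* alone made up 72.0% of the former. Without *Foxc1*, the remaining 522 and 135 reads gave a ratio of 3.97 (95% counting interval 3.28 to 4.84). In bulk RNA, more cells of a kind and more RNA per cell cannot be told apart.

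**Figure D1:**
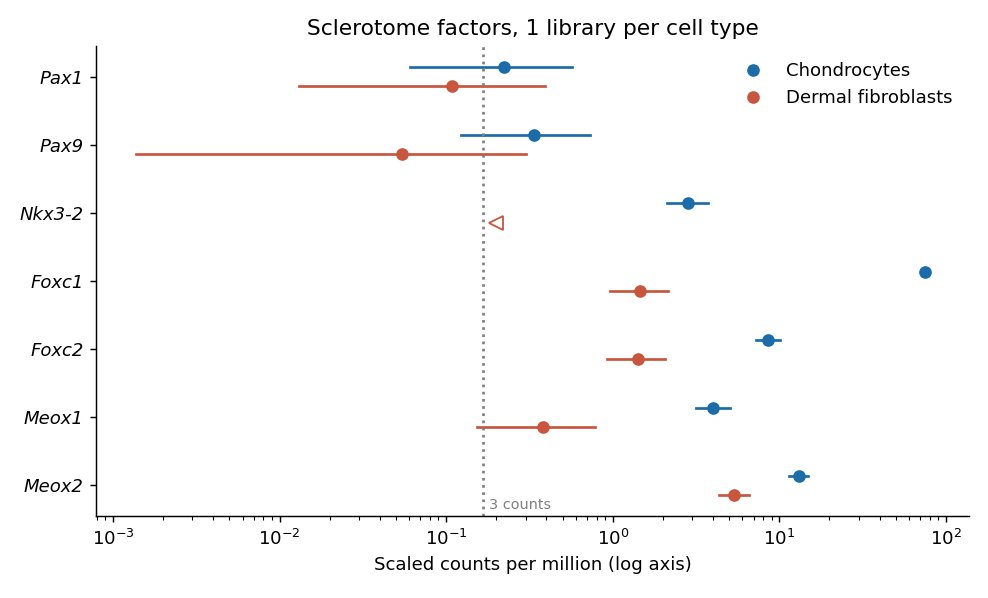
Scaled CPM (log axis) of the 7 sclerotome factors in the chondrocyte library (blue) and the dermal fibroblast library (red), with exact 95% Poisson intervals as bars. The open triangle is the upper limit for *Nkx3-2*, which had 0 reads in dermal fibroblasts, and the dotted line is the level of 3 counts. *Foxc1* stands apart in chondrocytes at 74.9 CPM, and *Pax1* and *Pax9* lie near the level of 3 counts in both libraries.

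*Foxc1*, a forkhead factor of paraxial mesoderm that is also needed in skull, eye and vessel development, had the most reads of the 7 factors in chondrocytes. It lies on chromosome 13 of GRCm38 (the mm10 build), from 31806646 to 31810635. Its counts were 1342 in chondrocytes and 27 in dermal fibroblasts, which is 74.9 CPM and 1.47 CPM. The fold was 51.05, with a counting interval from 34.9 to 77.8. This was the largest fold of the 7 factors that does not rest on the floor. *Foxc2*, its paralogue, also acts in kidney and lymphatic vessels and lies on chromosome 8 (121116171 to 121118895). Its 154 counts in chondrocytes against 26 in dermal fibroblasts gave a 6.08-fold difference (interval 4.0 to 9.61). Both genes were higher in chondrocytes, by unequal amounts. In dermal fibroblasts the paralogues had nearly the same number of reads, and *Foxc1* took 50.9% of the 53 reads of the pair (Clopper-Pearson interval 36.8 to 64.9%). In chondrocytes it took 89.7% of 1496 reads (interval 88.1 to 91.2%). The fold of *Foxc1* was 8.39 times that of *Foxc2* (interval 4.57 to 15.3), a ratio in which the scaling between libraries cancels. *Foxc1* and *Foxc2* each have 1 exon, so spliced reads cannot tell their RNA from unspliced RNA or DNA. In GENCODE vM1 the whole of *Foxc2* also lies inside a gene model on the same strand, Gm20388, which has no row in the count table.

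*Nkx3-2*, a homeobox repressor also known as Bapx1, promotes cartilage formation downstream of *Pax1* and *Pax9*. It lies on chromosome 5 (41761483 to 41764220). It had 51 counts in chondrocytes (2.85 CPM, exact Poisson interval 2.12 to 3.74) and 0 counts in dermal fibroblasts, where 3 counts would be 0.163 CPM. With the floor of 3 counts in dermal fibroblasts the fold was 17.5, a value that depends on the floor. The lower end of the Clopper-Pearson counting interval, which does not use the floor, was 13.7-fold. *Nkx3-2* was the sole factor of the 7 without a read in one of the libraries. With a floor of 10 counts in either library, the fold moved to 5.24.

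*Meox2* and *Meox1* are homeobox genes of the somite. *Meox2* is also known from limb muscle and vessels, and *Meox1* from the sclerotome and the joints of the upper neck. *Meox2* lies on chromosome 12 (37108540 to 37179534) and had 235 counts in the chondrocyte library and 99 in that of dermal fibroblasts, which is 13.1 CPM and 5.38 CPM. The fold was 2.44, with an interval from 1.92 to 3.12 that reaches below 2. It was the most abundant of the 7 factors in dermal fibroblasts, where it made up 61.1% of their reads. *Meox1* lies on chromosome 11 (101877510 to 101894354) and had 72 counts in the chondrocyte library and 7 in that of dermal fibroblasts, which is a 10.6-fold difference (interval 4.87 to 27.2). Both genes were higher in chondrocytes, and *Meox1* by more. The fold of *Meox1* was 4.33 times that of *Meox2* (interval 1.90 to 11.5). *Meox2* took 76.5% of the 307 reads of the pair in chondrocytes (interval 71.4 to 81.2%) and 93.4% of 106 reads in dermal fibroblasts (interval 86.9 to 97.3%). The FOXC and MEOX pairs thus had a more even balance of reads in different libraries, FOXC in dermal fibroblasts and MEOX in chondrocytes.

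**Figure D2:**
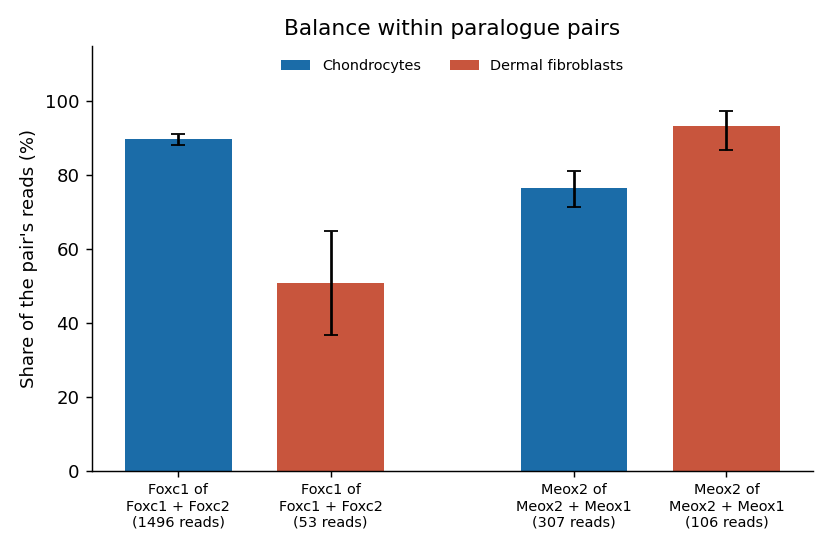
Share of the reads of each paralogue pair (%) that belong to *Foxc1* (left) and to *Meox2* (right), in chondrocytes (blue) and dermal fibroblasts (red). The bars start at 0, the error bars are 95% Clopper-Pearson intervals for counting error, and the number of reads is under each bar. *Foxc1* took 89.7% and 50.9% of its pair, and *Meox2* took 76.5% and 93.4% of its pair.

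*Pax1* and *Pax9* encode paired-box factors that mark the sclerotome of the embryo and sustain its growth. *Pax1* lies on chromosome 2 (147361930 to 147375049) and had 4 counts in the chondrocyte library and 2 in that of dermal fibroblasts. *Pax9* lies on chromosome 12 (56691693 to 56712824) and had 6 counts and 1 count. Both genes were at or near the level of 3 counts in each library. The ratio of *Pax1* was 2.05 with an interval from 0.294 to 22.7, and that of *Pax9* was 6.16 with an interval from 0.748 to 283. No difference between the libraries was detectable for either gene at this depth. With the floor of 3 counts the folds were 1.37 and 2.05. The annotated ends of *Pax9* and of *Slc25a21*, on the opposite strand, share 191 bp in GRCm38. A long non-coding gene, AI646519, overlaps *Pax1* on the opposite strand and had 0 reads in both libraries. Gm15524 and Gm46352 overlap *Pax9* in GRCm38, and Gm15524 is on the same strand. In GRCm38 Gm46910 shares 1586 bp with *Nkx3-2*, and in GENCODE vM1 Gm11551 shares 4970 bp with *Meox1* on the opposite strand. The part of such overlaps in the counts was not tested. Whether the counting used the strand is not given in the sources used here.

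**Figure D3:**
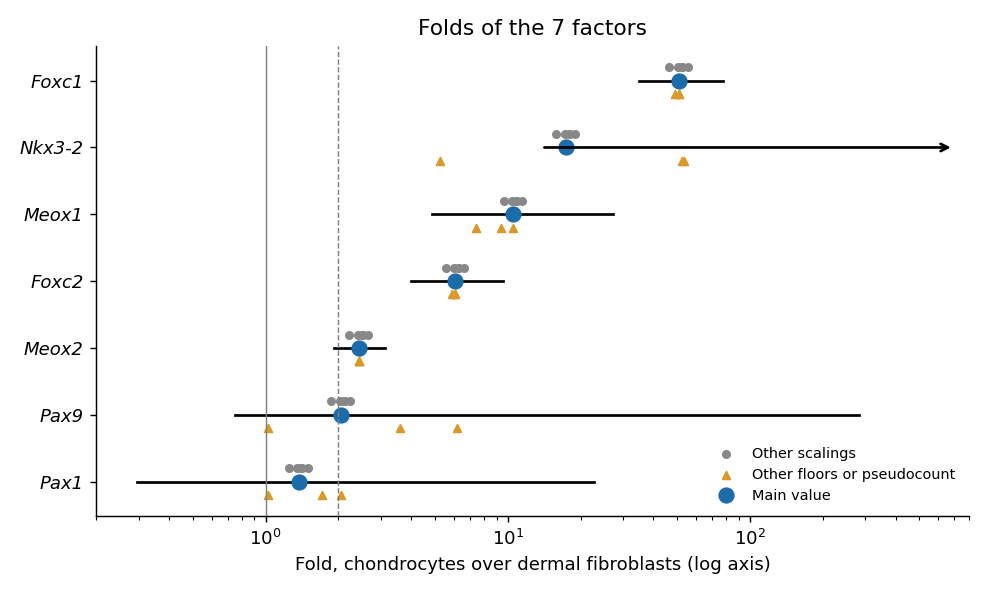
Folds of the 7 factors, chondrocytes over dermal fibroblasts (log axis). Large blue points are the main values, black lines are 95% counting intervals (the arrow for *Nkx3-2* has no upper end), grey points are the other scalings and orange triangles the other floors and the pseudocount. The solid line marks equality and the dashed line 2-fold. The folds of *Foxc1*, *Foxc2* and *Meox2* hardly move with the floor, and those of *Pax1* and *Pax9* fall to 1.03 with a floor of 10 counts.

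To compare the factors with each other, the scaled counts were divided by the length of the exons in GENCODE vM1, which gives RPKM (scaled CPM per kilobase of exon). In chondrocytes the order of levels was *Foxc1* at 18.8 RPKM, *Foxc2* at 3.16, *Meox2* at 2.84, *Meox1* at 1.8, *Nkx3-2* at 1.42, *Pax9* at 0.066 and *Pax1* at 0.050. *Foxc1* stood above 79.3% of the genes tested by this measure, and *Foxc2*, *Meox2*, *Meox1* and *Nkx3-2* stood above 24.7 to 37.6% of them. Neighbours in this order could not be told apart by counting error for *Foxc2* and *Meox2* (ratio 1.11, interval 0.900 to 1.37), for *Meox1* and *Nkx3-2* (ratio 1.27, interval 0.873 to 1.85) and for *Pax9* and *Pax1*. In dermal fibroblasts *Meox2* led at 1.17 RPKM, followed by *Foxc2* at 0.519, *Foxc1* at 0.368 and *Meox1* at 0.171. *Meox2* was 2.25 times the level of *Foxc2* there (interval 1.45 to 3.61). *Foxc2* and *Foxc1* did not differ beyond counting error (ratio 1.41, interval 0.791 to 2.51), nor did *Foxc1* and *Meox1* (ratio 2.15, interval 0.915 to 5.86). *Foxc1* thus led in chondrocytes, and *Meox2* led in dermal fibroblasts.

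Promoter sequence was at hand for 5 of the 7 factors in the RefSeq table for GRCm38.p6, and *Foxc2* and *Meox1* were not in it. The start that this table uses for *Pax1* and for *Pax9* lies inside the gene span given above, and the window of *Nkx3-2* lies within a longer transcript of GENCODE vM1, so these 3 windows need not be the bases before the outermost start. The 250 bases before the annotated start are printed for *Foxc1* and *Meox2*, the factors with the most reads in chondrocytes and in dermal fibroblasts, to show their base composition. They lie at chr13:31806396-31806645 and chr12:37108290-37108539, both on the plus strand, and capitals mark matches to the motifs searched.
Foxc1: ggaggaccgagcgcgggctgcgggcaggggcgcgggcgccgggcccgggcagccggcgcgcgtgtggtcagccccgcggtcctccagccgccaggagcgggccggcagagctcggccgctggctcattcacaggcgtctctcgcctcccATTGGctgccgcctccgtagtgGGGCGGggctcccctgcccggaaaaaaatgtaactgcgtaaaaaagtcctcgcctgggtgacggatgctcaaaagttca
Meox2: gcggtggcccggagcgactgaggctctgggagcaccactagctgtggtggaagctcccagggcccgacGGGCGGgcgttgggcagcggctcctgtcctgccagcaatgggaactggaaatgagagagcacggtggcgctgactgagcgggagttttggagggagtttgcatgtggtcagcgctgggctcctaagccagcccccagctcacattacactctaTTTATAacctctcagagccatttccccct
The *Foxc1* window held 29 CpG dinucleotides and 70.8% G and C, and 93.2% of the 32841 promoters in the table held fewer CpG. The *Meox2* window held 12 CpG and 62% G and C. *Nkx3-2* had 21 CpG, *Pax1* had 10 and *Pax9* had 7, against a median of 6 over the table. The motifs were searched on both strands and do not share letters in these windows. The GC box GGGCGG was present before *Foxc1*, *Meox2*, *Nkx3-2* and *Pax1*, and in 32.7% of all promoters. In *Foxc1* it starts at base -79 counted from the start, after a reverse CCAAT box (ATTGG) at -101. A CCAAT box is present in 33.9% of all promoters, and *Pax1* held it at -63 and -52. *Meox2* held a reverse TATA box (TTTATA) at -29, a motif present in 12.4% of all promoters as TATAAA on either strand. *Pax9* held the NK site TAAGTG in reverse at -128 (7.93% of all promoters), and *Nkx3-2* held the E-box CAGCTG at -246 (13% of all promoters). The letters TGGGTGGTC of a GLI site, AACAAT of a SOX site, GTAAACA of a forkhead site and TAATTA of a homeodomain site were in none of the 5 windows. They were in 0.225%, 9.43%, 3.17% and 4.84% of all promoters.

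The genes around the sclerotome factors were set beside them. *Foxc2* lies in a cluster of forkhead genes with *Foxf1*, a factor of visceral and lung mesoderm, and *Foxl1*. *Foxf1* had 244 counts against 15 and was 16.7-fold higher in chondrocytes (interval 9.93 to 30.3). *Foxl1*, which begins 8789 bp beyond *Foxc2*, had 5 counts and 0. *Mthfsd*, which ends 7757 bp before *Foxc2*, had 364 and 379 counts, a fold of 0.986 (interval 0.852 to 1.14). Both forkhead genes of this cluster with at least 10 counts thus passed 2-fold toward chondrocytes, and *Mthfsd*, which lies between them, did not. The fold of *Foxf1* was 2.75 times that of *Foxc2* (interval 1.35 to 5.75). *Foxc1* lies in another forkhead cluster, with *Foxf2* and *Foxq1*. *Foxf2*, 175239 bp from *Foxc1*, had 46 and 26 counts, a fold of 1.82 (interval 1.10 to 3.06), and *Foxq1* had 0 and 3. *Gmds*, an enzyme of GDP-fucose synthesis that begins 8947 bp beyond *Foxc1*, had 519 and 334 counts, a fold of 1.60 (interval 1.39 to 1.84). Neither *Foxf2* nor *Gmds* passed 2-fold. Over the 4 clustered genes with a row, 2 had at least 10 counts and 1 of these passed 2-fold. Beside *Nkx3-2*, *Rab28* had a fold of 1.58 (interval 1.44 to 1.73) and *Bod1l* a fold of 0.876 (interval 0.808 to 0.95). *Etv4*, an ETS factor next to *Meox1*, had 96 and 39 counts, a fold of 2.53 (interval 1.73 to 3.77). *Agmo*, next to *Meox2*, had 4 and 15 counts, a fold of 0.274 (interval 0.0662 to 0.860), and so passed 2-fold toward dermal fibroblasts.

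Hedgehog signalling induces the sclerotome in the embryo. In these libraries *Shh*, the ligand of the notochord, had 0 reads in both, and *Ihh*, the ligand of the growth plate, had 41 counts in the chondrocyte library and 3 in that of dermal fibroblasts. Of the 9 genes of this pathway list with at least 10 counts, 5 passed 2-fold toward chondrocytes and 1 passed it toward dermal fibroblasts, and the median log2 fold was 1.06. *Ptch1*, the receptor and a target of the pathway, was 5.15-fold higher in chondrocytes (868 and 173 counts, interval 4.37 to 6.10), and *Gli1*, a transcriptional target, was 2.30-fold higher (190 and 85 counts, interval 1.77 to 3.0). *Gli2* had 441 and 814 counts, a fold of 0.556 (interval 0.494 to 0.626), and *Gli3* a fold of 1.81 (interval 1.67 to 1.97). *Nog*, the BMP antagonist noggin, had 295 and 152 counts, a fold of 1.99 (interval 1.63 to 2.44). The pathway genes differed in both directions, whereas no sclerotome factor passed 2-fold toward dermal fibroblasts.

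*Sox9* and its partners follow the sclerotome factors in the embryo. *Sox9* had 5045 counts against 342, which made it 15.2-fold higher in chondrocytes (interval 13.6 to 17). The fold of *Foxc1* was 3.37 times that of *Sox9* (interval 2.26 to 5.21). The folds of *Meox2* and *Foxc2* were smaller than that of *Sox9*, which was 6.21 times (interval 4.74 to 8.10) and 2.49 times (interval 1.55 to 3.85) as large. For *Meox1*, *Nkx3-2*, *Pax1* and *Pax9* the interval of this ratio included 1. *Sox5*, with 957 and 27 counts, was 36.4-fold higher in chondrocytes (interval 24.9 to 55.5), and the fold of *Foxc1* was 1.40 times that of *Sox5* (interval 0.786 to 2.50), so these folds could not be told apart by counting error. *Sox6*, with 2897 and 106 counts, was 28.1-fold higher in chondrocytes (interval 23.1 to 34.4), and the fold of *Foxc1* was 1.82 times as large (interval 1.18 to 2.90). The 3 genes whose levels were most like those of *Foxc1* over the libraries were *Tox* (1279 and 30 counts), *Eps8l2* (1199 and 29 counts) and *Crispld1* (1432 and 34 counts). For *Meox2* they were *Lyrm4* (224 and 98 counts), *Abca8b* (238 and 104 counts) and *Cenph* (229 and 104 counts). Likeness was the distance in log2 CPM over 2 libraries among 11162 genes with at least 100 counts in either, and 2 libraries make it a likeness of level and fold only.

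Other factors of the somite were mostly at few reads. Of 10 further somite and paraxial mesoderm genes, 3 reached 10 counts in either library, of which 1 passed 2-fold in each direction and 1 in neither. *Tbx18*, which marks the anterior part of each sclerotome segment, had 397 counts in dermal fibroblasts against 101 in chondrocytes, a fold of 0.261 (interval 0.208 to 0.326). *Uncx*, the marker of the posterior part, had 1 read and 0. *Tcf15*, *Msgn1* and *Ripply2* had 0 reads in both libraries. *Ripply1* had 16 and 4 counts, and *Tbx6* had 13 and 14. *Tbx18* thus passed 2-fold in the direction opposite to that of *Foxc1*, *Foxc2*, *Nkx3-2*, *Meox1* and *Meox2*.

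Dermomyotome and myotome factors were divided between the libraries. Of the 10 with at least 10 counts, 6 passed 2-fold toward chondrocytes and 4 toward dermal fibroblasts, with a median log2 fold of 1.67. *En1*, a marker of the central dermomyotome and of dermal precursors of the back, had 58 counts against 568, a fold of 0.105 (interval 0.0786 to 0.138). *Sim1* (5 and 40 counts) and *Lbx1* (2 and 15 counts) were also higher in dermal fibroblasts, and *Pax3* had 4 and 12 counts with an interval of the fold from 0.0805 to 1.13. *Pax7*, the satellite cell factor, had 120 and 4 counts, *Myf5* 36 and 1, *Eya1* 145 and 19, *Myod1* 2328 and 496, and *Myog* 3526 and 1728. All of these passed 2-fold toward chondrocytes, and for *Myog* the interval of the 2.10-fold difference began at 1.98. Among the 7 other PAX genes, *Pax7* and *Pax3* alone reached 10 counts in either library, and they passed 2-fold in opposite directions. The low counts of *Pax1* and *Pax9* were thus shared by *Pax2*, *Pax4*, *Pax5*, *Pax6* and *Pax8*, none of which had more than 8 reads in a library. Of 4 genes of the syndetome, the tendon compartment of the sclerotome, 3 passed 2-fold toward chondrocytes (median log2 fold 1.33). *Scx* had 160 and 58 counts, a fold of 2.83 (interval 2.09 to 3.90), *Mkx* a fold of 2.23 (interval 1.35 to 3.77) and *Fmod* a fold of 12.0 (interval 11.3 to 12.8). *Tnmd* had a fold of 0.681 (interval 0.540 to 0.856).

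**Figure D4:**
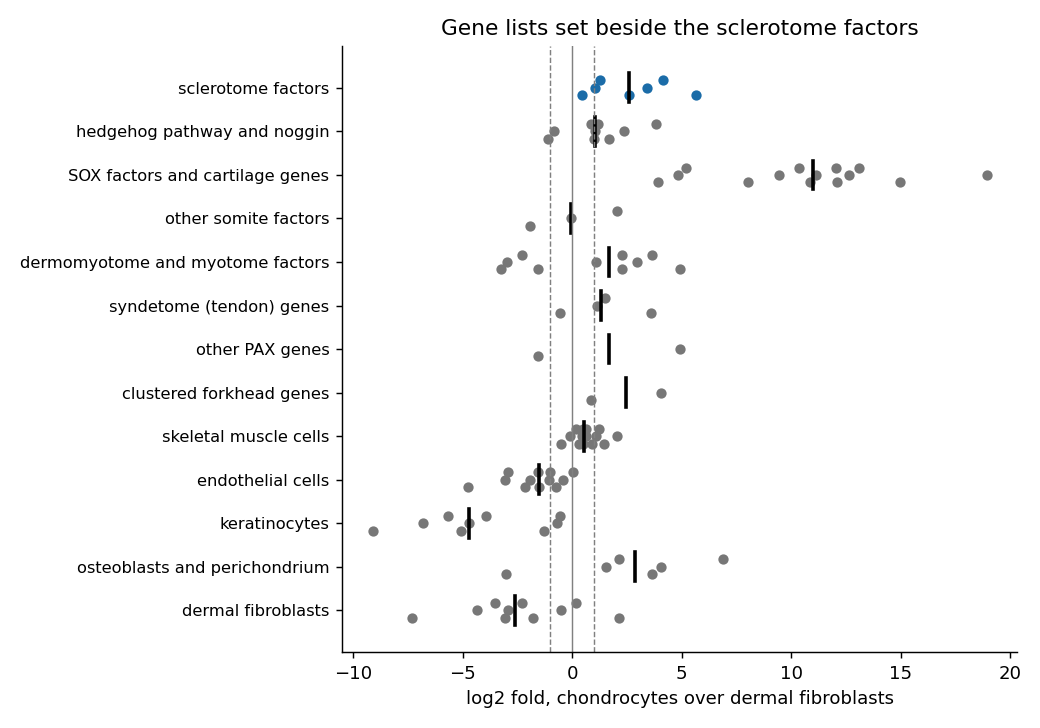
log2 fold, chondrocytes over dermal fibroblasts, of the 7 sclerotome factors (blue) and of the other gene lists (grey, genes with at least 10 counts in either library). Each point is a gene, black bars are list medians, and dashed lines mark 2-fold in each direction. The sclerotome factors lie between 0.45 and 5.67 with a median of 2.60, and the dermomyotome and myotome factors lie on both sides of 0.

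Several of the 7 factors are also expressed by other cells that a preparation of rib or skin can hold, so markers of such cells were counted. All 12 endothelial genes were detected in both libraries, with 25.8 CPM in sum in chondrocytes and 74.7 CPM in dermal fibroblasts, and 9 passed 2-fold toward dermal fibroblasts and 0 toward chondrocytes. *Kdr* had 70 and 276 counts. The other 3 were within 2-fold. The part of endothelial cells in the levels of the factors was not tested. All 14 muscle genes had at least 100 counts in each library, and 4 passed 2-fold toward chondrocytes and 0 toward dermal fibroblasts, with a median log2 fold of 0.56 and a sum of 2257.5 and 1589 CPM. *Myh3* had 7784 and 6497 counts. Of 6 osteoblast and perichondrium genes with at least 10 counts, 5 passed 2-fold toward chondrocytes and 1, *Col1a1*, toward dermal fibroblasts (median log2 fold 2.87), and *Spp1* had 9639 and 3413 counts. Their sum, which is mostly *Col1a1*, was 2794 CPM in chondrocytes and 17707 CPM in dermal fibroblasts, and 1 of the 8 genes on the list, *Bglap*, had 0 reads in dermal fibroblasts. The medians of the muscle and osteoblast lists were on the same side as those of the sclerotome factors, and the part of these cells in the result was not tested. Of 9 keratinocyte genes with at least 10 counts, 7 passed 2-fold toward dermal fibroblasts and 0 toward chondrocytes (median log2 fold -4.70, sum 9.76 and 283 CPM), and *Dsg3* had 0 reads in chondrocytes, with *Krt14* at 17 and 1939 counts. Of 10 dermal fibroblast genes, 7 passed 2-fold toward dermal fibroblasts and 1, *Dlk1*, toward chondrocytes (median log2 fold -2.61, sum 3931 and 18065 CPM), with *Col3a1* at 32090 and 273385 counts.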

How the data were processed

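The series holds RNA-Seq of primary rib chondrocytes and of primary dermal fibroblasts, 1 library each. The authors prepared stranded mRNA libraries, mapped single-end reads to mm10 with TopHat2 2.0.13, Bowtie2 2.2.3 and SAMtools 0.1.19 after base calling with CASAVA 1.8.2 (submitters' processing notes), and deposited a table of raw counts with 1 row per symbol. The counting program, annotation and strand setting are not given in the sources used here. In 27 rows the symbol had been turned into a date, and these were not named.

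The counts were scaled with edgeR 4.0.16 TMM factors (R 4.3.3), 0.954 for chondrocytes and 1.05 for dermal fibroblasts. Folds used a floor of 3 counts and a threshold of 2. Ratios have 95% Clopper-Pearson intervals, ratios of folds have exact conditional intervals and levels have exact Poisson intervals (Python 3.11.15, scipy 1.17.1). With 1 library per cell type, these intervals cover counting error only. The reads carry no molecular identifiers and are not independent molecules, so the intervals can be too narrow even for that error. No p-value was computed. The alternatives were other scalings (DESeq2 1.42.0 size factors among them), floors, filters and thresholds. The calculations were also run on simulated independent Poisson counts. Those lack duplicate reads and variation between libraries, so that run cannot speak to either. Exon lengths came from GENCODE vM1 (NCBIM37) and covered 92.2% of the tested genes. Positions came from RefSeq for GRCm38.p6, the build of mm10, in which all 7 factors matched by symbol.

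The factors and gene lists were chosen with earlier results of these data known. Named were the 7 factors, the genes of the 7 developmental lists, the leading genes of the 5 cell type lists, the annotated neighbours of each factor, and the 3 genes most like the most abundant factor of each library. The motifs, the overlapping genes and the cell type markers at 0 reads were named after their values were seen. The values of some list genes are not reported here.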

Additional observations from a re-analysis of the deposited data

How the results depend on the processing

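No paired analysis was possible because chondrocytes and fibroblasts were each sequenced as a lone library. Of the sclerotome factors, 6 passed 2-fold toward chondrocytes with the reported settings. Scaling to total counts left 5, a floor of 10 counts also left 5, and a floor of 1 count let all 7 pass. A fold over 4, or a lower bound of the interval over 2, left 4. Only 3 of the 7 factors reached 100 counts in a library, and all 3 passed when at least 100 counts were required. The number of factors that passed toward dermal fibroblasts was 0 under each of these alternatives. With total counts and with other floors the change came from *Pax1* or *Pax9*, and the stricter thresholds remove genes by construction. Over all 6 scalings the fold of *Foxc1* ranged from 46.5 to 55.6 and that of *Foxc2* from 5.54 to 6.62. The fold of *Meox1* ranged from 9.62 to 11.5 and that of *Meox2* from 2.22 to 2.65. That of *Nkx3-2*, which rests on the floor, ranged from 15.9 to 19, and that of *Pax9* from 1.87 to 2.24. Scaling to total counts in place of TMM shifted all log2 folds by -0.14, and scaling to *Actb* by 0.12. Shifts of this size are too small to reverse the fold of any of the 7 factors. With a floor of 10 counts, both counts of *Pax1* and of *Pax9* are set to 10, and their value reflects the scaling alone. Of 56 fold values of the factors under the alternatives, 0 changed direction, and 1 left its interval (*Nkx3-2* with a floor of 10 counts, 5.24-fold). Of 120 list medians, 0 of those over 2-fold changed direction and 13 left the range set for their list. That range runs from the median of the genes' lower bounds to the median of their upper bounds, and is not a confidence interval. With at least 100 counts, the lists of other PAX genes, clustered forkhead genes and other somite factors came down to 1 gene each. Their log2 medians went from 1.70 to 4.95, from 2.46 to 4.06 and from -0.068 to -1.94. The osteoblast median (log2) went from 2.87 to 1.83 with no filter, 2.12 with at least 100 counts and 2.21 with a floor of 10, the keratinocyte median from -4.70 to -3.35 with a floor of 10, the dermomyotome and myotome median from 1.67 to 1.26 with no filter and 2.27 with at least 100 counts, and the clustered forkhead median from 2.46 to 0.82 with no filter. Of the 14291 tested genes, 1684 passed 2-fold toward chondrocytes and 2319 toward dermal fibroblasts. These numbers became 1446 and 2623 under scaling to total counts, and 1433 and 2026 when the floor was 10 counts. A floor of 1 count left them at 1684 and 2319. A fold over 4 gave 713 and 929, and the bound of the interval over 2 gave 1031 and 1546. With at least 100 counts, 981 and 1485 of a smaller set of 11162 genes passed. Depth limits *Pax1* and *Pax9*, whose intervals span equality.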
